A study of Mus musculus with 2 samples.

Results

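The genes described are 37 genes of glycolysis and of the response to low oxygen, taken from a list of named genes and found in the counts by their gene identifiers. They are 37 of 47643 genes counted, and fall into 16 glycolytic enzymes, 4 glucose and lactate transporters, 4 regulatory kinases and 13 genes of the hypoxia response. All 37 have a row in both libraries, and 30 had at least 150 reads in 1 library or more, the filter used in the study. The other 7 are described by their reads, with no call.

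The cells were described as cortical progenitors from the brain cortex of wild-type mice, labelled male, isolated at embryonic day 14. They were electroporated with a non-targeting control siRNA (siCtl) or with siRNAs against Phf6 (siPhf6) and kept in culture for 5 days, and their mRNA was then sequenced. Phf6 is an X-linked gene for a chromatin-associated PHD finger protein that is mutated in Börjeson-Forssman-Lehmann syndrome, an intellectual disability disorder. A single library stood for each group, although the study's methods give more than 1 sample per group, and the sources used here do not say whether a library pools cultures.

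Phf6 (chromosome X, 52912266 to 52956943 in mm10) had 1420 reads in siCtl and 310 in siPhf6. Its level in siPhf6 was 25.1% of that in siCtl, a log2 ratio of -1.99 with a 95% counting interval of -2.17 to -1.81. The siCtl library held 12155311 gene reads and the siPhf6 library 10561757, and levels are given as RPM (reads scaled to 1000000 gene reads per library). A ratio is that of siPhf6 to siCtl on the log2 scale, with 1 read added to each count, and its interval is an exact Clopper-Pearson interval that covers counting error only. Without replicates no spread between cultures can be estimated, so every difference is between these libraries and none is a test of the knockdown. A gene was called higher or lower in siPhf6 where the ratio was over 0.25 in size and the interval left out 0. Over the 10130 genes that passed the filter, 1574 (15.5%) were higher and 1487 (14.7%) lower in siPhf6, with a median ratio of 0.01.

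Glycolysis splits glucose into pyruvate in the cytosol, with a small yield of ATP, and lactate dehydrogenase turns pyruvate into lactate, which leaves the cell through monocarboxylate transporters. Pyruvate dehydrogenase kinases hold pyruvate back from the mitochondria by inhibiting the pyruvate dehydrogenase complex. When oxygen is low, the prolyl hydroxylases of the EGLN family no longer mark the transcription factor HIF-1α for destruction by the von Hippel-Lindau ubiquitin ligase, and HIF-1α then activates many glycolytic genes together with Vegfa, Bnip3, Adm and others. Neural progenitors are known for strong glycolysis, and neurons rely more on oxidative metabolism.

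Of the 30 genes that passed the filter, 9 were higher in siPhf6 (30.0%, against 15.5% of all genes) and 1 was lower (3.33%, against 14.7%). The remaining 20 were not called. The ratios of 25 of the 30 were above 0, with a median of 0.12, against 0.01 over all genes. The genes that were higher were the enzymes Pfkl, Tpi1 and Eno2, the transporters Slc2a3 and Slc16a1, the kinases Pdk1 and Pdk3, and P4ha2 and Mxi1 of the hypoxia response. The gene that was lower was Pfkfb3. All 10 calls were under a 2-fold difference, and 7 of the 9 genes called higher lay between 0.28 and 0.39 on the log2 scale. When a coefficient of variation of 0.1 was assumed for cultures and added to the counting error, Slc16a1, Pdk3 and Pfkfb3 were still called and the other 7 were not.

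**Figure D1:**
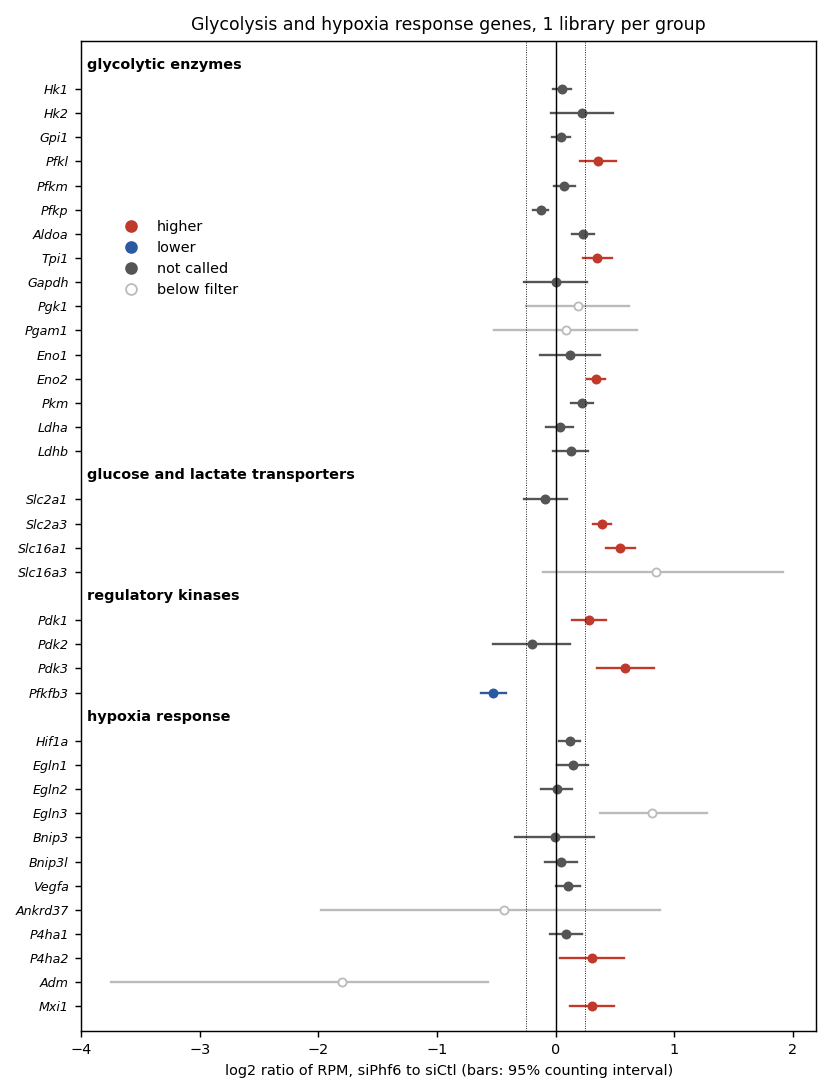
Log2 ratio of RPM, siPhf6 to siCtl, for 36 of the 37 genes in their 4 groups (Car9 had no read), with 95% counting intervals as bars. Filled red and blue points are genes called higher and lower, grey points were not called, and hollow points are genes under 150 reads in both libraries; dotted lines mark the limit of 0.25. Most points lie just right of 0, Slc16a1 and Pdk3 lie farthest right among the filled points, and Pfkfb3 is the one blue point.

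The 16 glycolytic enzymes followed in the order of the pathway. Of the 14 that passed the filter, 3 were higher (21.4%, against 15.5% of all genes) and none lower (against 14.7%), with a median ratio of 0.13. Their reads summed with those of the 2 genes below the filter came to 1944 RPM in siCtl and 2102 in siPhf6. Hk1, the hexokinase of most brain cells, had 2923 reads in siCtl and 2636 in siPhf6, for a ratio of 0.05 (-0.02 to 0.13). Hk2, the inducible hexokinase, had 245 and 249 reads, for a ratio of 0.23 (-0.03 to 0.49). Neither hexokinase was called. Gpi1, glucose-6-phosphate isomerase, had 2814 and 2527 reads, for a ratio of 0.05 (-0.03 to 0.13).

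Phosphofructokinase, which commits fructose 6-phosphate to glycolysis, is made from liver, muscle and platelet subunits. Pfkl, the liver subunit (chromosome 10, 77986947 to 78010083), had 680 reads in siCtl and 756 in siPhf6, or 55.9 and 71.6 RPM. Its ratio was 0.36 (0.20 to 0.51), and it was the one subunit called. Pfkm, the muscle subunit, had 2160 and 1973 reads, for a ratio of 0.07 (-0.02 to 0.16). Pfkp, the platelet subunit, had 4634 and 3690 reads, for a ratio of -0.13 (-0.19 to -0.06) that left out 0 but was under the limit. The Pfkp transcript shares 17.1% of its 50-base stretches with the neighbouring gene Pitrm1, which had 1279 and 765 reads, so reads of the overlap cannot be told apart without strand. Per kilobase, Pfkl made up 9.31% of the 3 subunits' summed level in siCtl and 11.6% in siPhf6, Pfkm 59.1% and 60.3%, and Pfkp 31.6% and 28.1%. These shares depend on the length used and do not rank the subunits. All annotated exons together span 13401 bases for Pfkp and 3340 for Pfkm, but their longest coding transcripts have 4145 and 2879. The ratio of Pfkl to Pfkp was higher in siPhf6 by 0.48 (0.32 to 0.65) between the libraries, and that of Pfkl to Pfkm by 0.28 (0.11 to 0.46).

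Aldoa, the aldolase that splits the 6-carbon sugar, had 1939 reads in siCtl and 1976 in siPhf6, for a ratio of 0.23 (0.14 to 0.32) just under the limit. Tpi1, triosephosphate isomerase (chromosome 6, 124810586 to 124814296), had 1025 and 1136 reads, or 84.3 and 107.6 RPM. Its ratio of 0.35 (0.23 to 0.47) was called higher. Gapdh, which makes the first NADH of the pathway, had 251 and 218 reads, for a ratio of 0.00 (-0.27 to 0.27). Pgk1, phosphoglycerate kinase, was below the filter with 92 and 91 reads. Pgam1, phosphoglycerate mutase, was also below it, with 51 and 47 reads.

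Enolase has a form found in most tissues, Eno1, and a neuronal form, Eno2. Eno2 (chromosome 6, 124760053 to 124769673) had 2575 reads in siCtl and 2835 in siPhf6, or 211.8 and 268.4 RPM. Its ratio was 0.34 (0.26 to 0.42), and it held the most reads of the 3 enzymes called higher. Eno1 had 265 and 251 reads, for a ratio of 0.12 (-0.13 to 0.38), and the ratio of Eno2 to Eno1 changed by 0.22 with an interval of -0.05 to 0.48 that held 0. Pkm, pyruvate kinase, had 1848 and 1877 reads, for a ratio of 0.23 (0.13 to 0.32), just under the limit like Aldoa. Ldha, the lactate dehydrogenase subunit that HIF-1α induces, had 1360 and 1210 reads, for a ratio of 0.03 (-0.08 to 0.15). Ldhb, the heart-type subunit, had 762 and 724 reads, for a ratio of 0.13 (-0.02 to 0.28). Neither subunit was called, and the ratio of Ldha to Ldhb changed by -0.09 (-0.28 to 0.09).

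**Figure D2:**
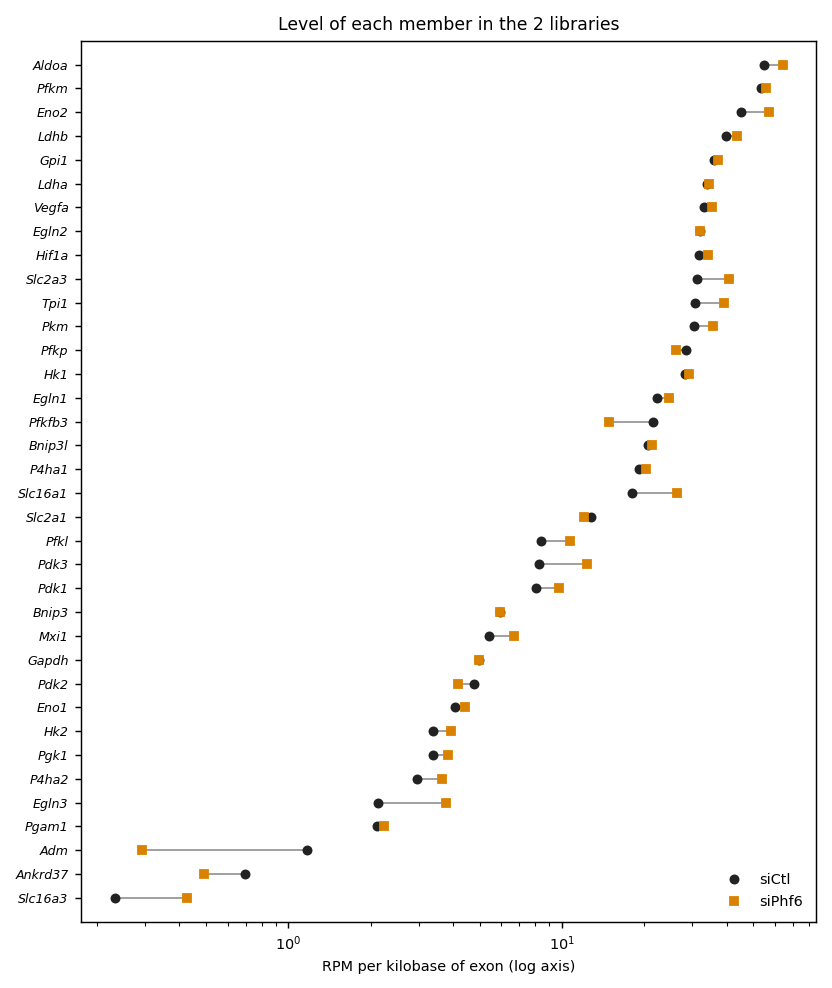
RPM per kilobase of exon on a log axis for the 36 genes with any read, black circles for siCtl and orange squares for siPhf6, ordered by the siCtl level. Aldoa is highest in both libraries, at 54.8 in siCtl and 64.3 in siPhf6, and Gapdh, Eno1, Pgk1 and Pgam1 lie in the lower part of the plot at 5.00 or less in both.

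Several enzymes have near-identical copies elsewhere in the genome, among them Gapdh, Eno1, Pgk1 and Pgam1, all of which had few reads. Gapdh, a highly expressed gene in most cells, stood at 5.00 RPM per kilobase in siCtl, a level above that of 15.9% of the genes that passed the filter. Of the 50-base stretches of its longest coding transcript, 82.5% also occur in other annotated genes. The share was 72.2% for Eno1, 68.0% for Pgk1, 62.4% for Bnip3 and 41.5% for Pgam1, and these 5 genes lay between 2.12 and 5.96 RPM per kilobase in siCtl. The 9 enzymes that share under 20% had a median of 30.6, with a range from 3.38 for Hk2 to 54.8 for Aldoa. Few reads were counted on the copies, as the closest Gapdh pseudogene Gm7336 had 0 reads in both libraries, Pgk1-rs7 had 2 and 1, Pgam1-ps2 had 1 and 1, and Eno1b had 41 and 42. Both files list 0 reads under alignments that were not unique. The part of shared sequence in these levels was not tested. The share was 34.4% for Pkm (its copy Gm6560 had 123 and 130 reads), 27.0% for Ldhb, 25.3% for Gpi1 and 23.4% for Bnip3l. No gene called higher or lower shared more than the 7.51% of Tpi1. Leaving out all genes of 20% or more, an alternative chosen after seeing the data, could therefore not change the 9 and 1 calls. It left 23 genes with a median of 0.15.

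**Figure D3:**
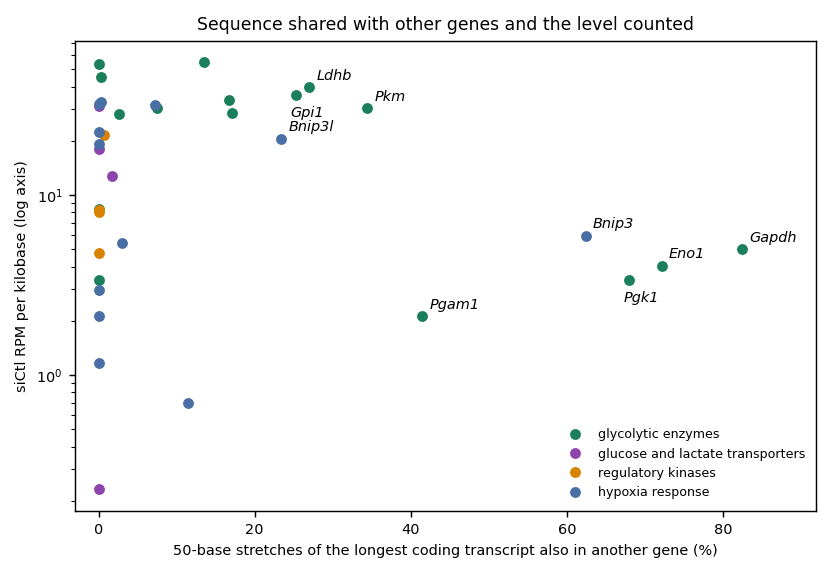
Share of 50-base stretches of each gene's longest coding transcript that also occur in another annotated gene (horizontal axis, %) against its siCtl level in RPM per kilobase (log axis), coloured by group; genes at 20% or more are named. The 5 genes past 40% all lie under 6 RPM per kilobase, and genes near 0% span the whole range of levels.

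The transporters bring glucose in and carry lactate across the membrane. Of the 3 that passed the filter, 2 were higher (against 15.5% of all genes) and none lower (against 14.7%), with a median ratio of 0.39. The 4 together had 351.5 RPM in siCtl and 457.2 in siPhf6. Slc2a3, the high-affinity neuronal glucose transporter GLUT3 (chromosome 6, 122727809 to 122801640), had 2742 reads in siCtl and 3127 in siPhf6, or 225.6 and 296.1 RPM. Its ratio was 0.39 (0.32 to 0.47), at the 91.7th percentile of all genes tested. Slc2a1, the glucose transporter GLUT1 of glia and brain endothelium, had 546 and 447 reads, for a ratio of -0.09 (-0.27 to 0.10) that gave no call. Per kilobase, Slc2a3 made up 70.8% of the summed level of both in siCtl and 77.2% in siPhf6, and the ratio of Slc2a3 to Slc2a1 was higher in siPhf6 by 0.48 (0.28 to 0.68).

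Slc16a1, the monocarboxylate transporter MCT1 (chromosome 3, 104638668 to 104658462), had 970 reads in siCtl and 1231 in siPhf6, or 79.8 and 116.6 RPM. The siPhf6 level was 146.1% of the siCtl level, a ratio of 0.55 (0.42 to 0.67) at the 95.3rd percentile. Slc16a3, the lactate exporter MCT4 that HIF-1α induces, was below the filter with 15 and 24 reads, and its ratio of 0.85 had an interval of -0.11 to 1.92. MCT1 and GLUT3 were thus called higher, GLUT1 was not called and MCT4 was below the filter.

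The 4 regulatory kinases were divided, with 2 higher (against 15.5% of all genes), 1 lower (against 14.7%) and a median ratio of 0.04. Pdk3, a pyruvate dehydrogenase kinase encoded on chromosome X (93764607 to 93832201), had 256 reads in siCtl and 334 in siPhf6, or 21.1 and 31.6 RPM. Its ratio of 0.59 (0.35 to 0.83) was the largest among the 30 genes that passed the filter, at the 95.8th percentile of all genes tested. Pdk1, the family member that HIF-1α induces (chromosome 2, 71873224 to 71903858), had 761 and 803 reads, or 62.6 and 76.0 RPM, a ratio of 0.28 (0.14 to 0.43). Pdk2 had 184 and 139 reads, for a ratio of -0.20 (-0.53 to 0.12) and no call, and reached 150 reads in siCtl only. Per kilobase, Pdk3 made up 39.1% of the level of these 3 kinases in siCtl and 47.0% in siPhf6, Pdk1 38.2% and 37.2%, and Pdk2 22.7% and 15.8%. The order of Pdk3 and Pdk1 in siCtl depends on the length used. Their annotated exons span 2561 and 7779 bases, and their longest coding transcripts 2115 and 5185. The ratio of Pdk3 to Pdk2 was higher in siPhf6 by 0.79 (0.38 to 1.20), that of Pdk1 to Pdk2 by 0.48 (0.12 to 0.84) and that of Pdk3 to Pdk1 by 0.31 (0.02 to 0.59).

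Pfkfb3 makes fructose 2,6-bisphosphate, the strongest activator of phosphofructokinase. Pfkfb3 (chromosome 2, 11471433 to 11554077) had 1974 reads in siCtl and 1192 in siPhf6, or 162.4 and 112.9 RPM. The siPhf6 level was 69.5% of the siCtl level, a ratio of -0.52 (-0.63 to -0.42) at the 4.48th percentile of all genes tested. It was the one gene of the 30 called lower. Of the subunits of the enzyme it activates, Pfkl was called higher, while Pfkm at 0.07 and Pfkp at -0.13 were not called. Its relatives Pfkfb2 and Pfkfb4, which belong to the wider pathway, served as comparison, and the ratio of Pfkfb3 to Pfkfb2 changed by -0.34 (-0.51 to -0.17) and to Pfkfb4 by -0.54 (-0.77 to -0.31).

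**Figure D4:**
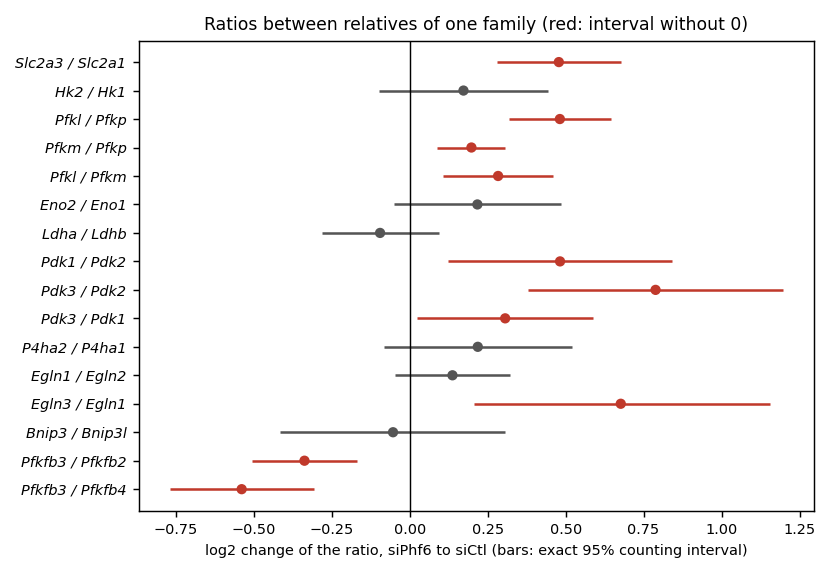
Log2 change of the ratio between relatives of 1 family from siCtl to siPhf6 (points) with exact 95% counting intervals (bars) for 16 pairs; red pairs have an interval without 0. Of the 16 pairs, 10 leave out 0, with Pdk3 to Pdk2 farthest right and both Pfkfb3 pairs left of 0. Pairs that share a gene are not independent. The size limit used for calls was not applied to pairs, and the pair of Egln3 to Egln1 includes a gene below the filter. The intervals cover counting error only. The share of pairs leaving out 0 was not computed for other genes, so the count of 10 has no background.

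The hypoxia response held the factor, its oxygen sensors and its targets. Of the 9 that passed the filter 2 were higher (22.2%, against 15.5% of all genes) and none lower (against 14.7%), with a median ratio of 0.10. Hif1a, the oxygen-regulated factor itself, which is controlled mainly at the protein level, had 2263 reads in siCtl and 2134 in siPhf6, for a ratio of 0.12 (0.03 to 0.20). Egln1, the main oxygen-sensing prolyl hydroxylase, had 975 and 937 reads, for a ratio of 0.15 (0.01 to 0.28), and Egln2 had 1086 and 949 reads, for a ratio of 0.01 (-0.12 to 0.14). None of these 3 was called. Egln3, the hydroxylase most strongly induced by HIF, was below the filter with 69 and 106 reads, and its ratio of 0.81 had an interval of 0.37 to 1.28. Relative to Egln1 it was higher in siPhf6 by 0.68 (0.21 to 1.16), and per kilobase it made up 3.78% of the 3 hydroxylases in siCtl and 6.23% in siPhf6.

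Among the targets, Mxi1, a repressor that competes with MYC for its partner MAX (chromosome 19, 53310518 to 53375810), had 449 reads in siCtl and 483 in siPhf6, or 36.9 and 45.7 RPM. It was higher, with a ratio of 0.31 (0.12 to 0.50). P4ha2, a subunit of the collagen prolyl hydroxylase (chromosome 11, 54100095 to 54131665), had 224 and 241 reads, or 18.4 and 22.8 RPM. It was called higher at a ratio of 0.31, although its interval of 0.04 to 0.58 nearly reached 0. Its relative P4ha1 had 957 and 885 reads, for a ratio of 0.09 (-0.04 to 0.22), and the ratio of P4ha2 to P4ha1 changed by 0.22 with an interval of -0.08 to 0.52 that held 0.

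Vegfa, the angiogenic growth factor and a standard readout of HIF activity, had 1720 and 1606 reads, for a ratio of 0.10 (0.0048 to 0.20) and no call. Bnip3 and Bnip3l, receptors for the removal of mitochondria by autophagy, had 164 and 142 reads and 965 and 867 reads. Their ratios were 0.00 (-0.34 to 0.33) and 0.05 (-0.09 to 0.18), neither was called, and Bnip3 reached 150 reads in siCtl only. The ratio of Bnip3 to Bnip3l changed by -0.05 (-0.42 to 0.31), an interval that also held 0. Ankrd37, Adm and Car9 were below the filter. Ankrd37, a small ankyrin repeat protein whose locus overlaps Lrp2bp, had 13 and 8 reads. Adm, the vasodilator peptide adrenomedullin, had 23 reads in siCtl and 5 in siPhf6, for a ratio of -1.80 with an interval of -3.75 to -0.57. Car9, carbonic anhydrase IX, had 0 reads in both libraries, so that any level up to 0.247 RPM in siCtl and 0.284 in siPhf6 would be within counting error. Of the 9 targets of this group, P4ha2 and Mxi1 were thus called higher and Vegfa, Bnip3, Bnip3l and P4ha1 were not called, and differences between targets were compared only within 2 pairs of relatives, as given for P4ha2 and Bnip3.

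**Figure D5:**
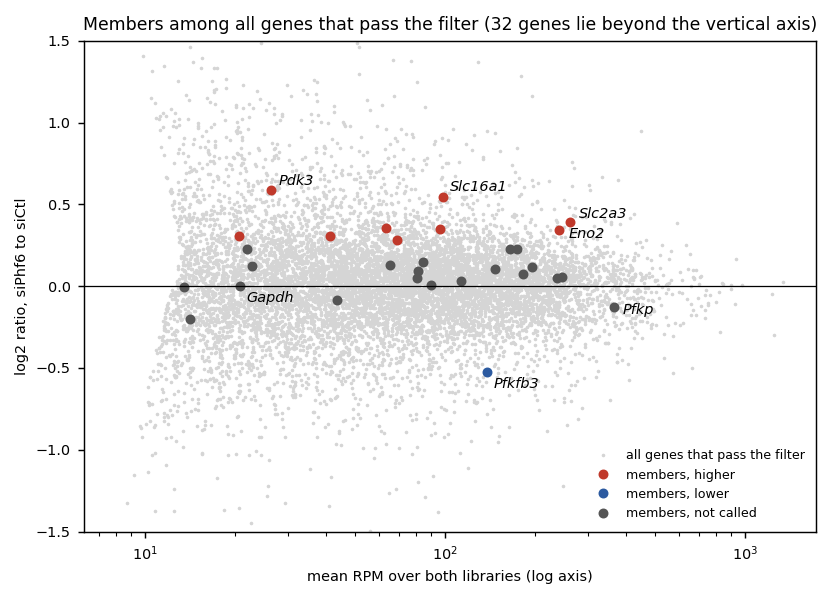
Log2 ratio of siPhf6 to siCtl against mean RPM (log axis) for the 10130 genes that passed the filter (light grey) and for the 30 described genes that did (red, higher; blue, lower; dark grey, not called); 32 genes lie beyond the vertical axis. Slc16a1, Pdk3 and Pfkfb3 lie toward the edges of the grey cloud, and the other named genes lie within it.

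HIF binds hypoxia response elements whose core is ACGTG or GCGTG. RefSeq promoters (GRCm38.p6, from 250 bases before to 50 bases after a start) were matched by symbol for 35 of the 37 genes, 52 promoters in all, and none was matched for Slc2a3 or Bnip3l. A core on either strand was found in 41 of the 52 promoters (78.8%), in 63.8% of the promoters of all genes that passed the filter and in 43.8% of all 32851 promoters. ACGTG alone was found in 57.7%, 25.8% and 19.6%. The palindrome CACGTG, which is also the E-box of MYC and its relatives, holds ACGTG on both strands and counts as 2 cores. Many of the listed genes are known HIF targets, so these shares are not independent of how the list was chosen, and base composition was not matched. Within the list, 6 of the 8 genes called higher with a promoter held a core, as did Pfkfb3 and 18 of the 19 genes not called.

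The stretches that follow are the parts of 5 promoters before the start site that meet no annotated exon, written 5′ to 3′ on the gene's strand with each core in capitals. They are the largest calls in each direction (Slc16a1, Pdk3 and Pfkfb3), the enzyme Ldha that carries most cores and was not called, and Eno2, which was higher and carries none.
Slc16a1, chr3:104638414-104638663, plus strand: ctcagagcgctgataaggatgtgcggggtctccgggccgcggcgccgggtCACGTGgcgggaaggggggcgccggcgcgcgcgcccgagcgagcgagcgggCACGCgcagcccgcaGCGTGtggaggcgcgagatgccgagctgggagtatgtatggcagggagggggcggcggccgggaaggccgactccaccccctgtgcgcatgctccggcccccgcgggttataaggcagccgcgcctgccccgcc
Pdk3, chrX:93832202-93832400, minus strand: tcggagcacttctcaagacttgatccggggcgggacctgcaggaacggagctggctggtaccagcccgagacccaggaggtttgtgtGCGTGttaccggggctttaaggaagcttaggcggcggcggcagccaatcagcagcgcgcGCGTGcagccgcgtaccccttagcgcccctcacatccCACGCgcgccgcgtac
Pfkfb3, chr2:11502102-11502340, minus strand: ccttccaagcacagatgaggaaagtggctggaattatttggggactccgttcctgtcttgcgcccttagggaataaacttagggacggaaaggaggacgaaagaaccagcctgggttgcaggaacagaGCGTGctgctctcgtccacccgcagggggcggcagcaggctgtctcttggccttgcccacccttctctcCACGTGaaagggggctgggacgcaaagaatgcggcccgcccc
Ldha, chr7:46845554-46845803, plus strand: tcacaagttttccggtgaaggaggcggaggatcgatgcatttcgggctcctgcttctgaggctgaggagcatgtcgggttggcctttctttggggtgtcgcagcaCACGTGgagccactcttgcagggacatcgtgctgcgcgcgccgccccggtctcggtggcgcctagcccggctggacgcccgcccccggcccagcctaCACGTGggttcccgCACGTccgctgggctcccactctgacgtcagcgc
Eno2, chr6:124769674-124769862, minus strand: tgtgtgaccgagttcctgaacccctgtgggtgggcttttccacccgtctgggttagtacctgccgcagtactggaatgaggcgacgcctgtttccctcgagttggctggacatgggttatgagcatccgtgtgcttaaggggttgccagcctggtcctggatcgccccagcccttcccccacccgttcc
The stretch of Slc16a1 holds 4 cores, that of Pdk3 3, that of Pfkfb3 3, that of Ldha 5 and that of Eno2 0. The Pfkfb3 stretch lies before an internal start of the gene and the Ldha stretch before a start inside its longest annotated form, so both are intronic to longer forms. Pfkfb3 and Ldha each have another promoter, and the one with more cores is shown. The stretch of the other promoter holds 0 cores for Pfkfb3 and 1 for Ldha, so their counts depend on this choice. Among the 5 stretches shown, that of Pfkfb3, which was lower, holds 3 cores, and that of Slc16a1, which was higher, holds 4. That of Ldha, which was not called, holds 5, and that of Eno2, which was higher, holds none. A core is a match of letters and not a bound site.

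Genes of the surrounding pathways gave the setting of these values, beside 15.5% higher and 14.7% lower over all genes. Of 26 other enzymes of glucose and glycogen use, 14 passed the filter, and 4 were higher and 1 lower, with a median ratio of 0.13. Pgm1, phosphoglucomutase, had 507 reads in siCtl and 601 in siPhf6, for a ratio of 0.45 (0.28 to 0.62), and Pgm2l1, which makes glucose 1,6-bisphosphate in brain, had 2311 and 2595, for a ratio of 0.37 (0.29 to 0.45). The other two, named after their values were seen, were Tigar at 0.35 and Ugp2 at 0.31. Gys1, the glycogen synthase of muscle and brain, had 951 and 560 reads and was lower at -0.56 (-0.71 to -0.41).

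All 8 genes of the pentose phosphate pathway passed the filter, none was higher and 1 was lower, H6pd with 312 and 227 reads and a ratio of -0.25 (-0.51 to -0.0048). Of 11 genes of mitochondrial pyruvate entry, 10 passed, with a median ratio of 0.05, and 1 was higher, the pyruvate dehydrogenase subunit Pdhb with 676 and 715 reads and a ratio of 0.28 (0.13 to 0.44). Of 13 other HIF pathway genes, 12 passed, none was higher and 3 were lower, with a median of -0.11. These 3 were Rbx1, the RING subunit of the von Hippel-Lindau ligase, with 903 and 511 reads (-0.62, -0.78 to -0.46), Eloc, its elongin C subunit, with 1384 and 825 reads (-0.54, -0.67 to -0.42), and the coactivator Crebbp at -0.45, named after its value was seen. The other listed subunits of this ligase, also named after their values were seen, were not called. Their ratios were -0.11 for Vhl, 0.15 for Cul2 and 0.14 for Elob.

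Of 32 other hypoxia targets, 24 passed, 6 were higher and 2 lower, with a median of 0.10. Stc1, the calcium-regulating hormone stanniocalcin 1, had 363 reads in siCtl and 775 in siPhf6, for a ratio of 1.29 (1.12 to 1.48), more than that of any of the 30 listed genes that passed. Ak4, a mitochondrial adenylate kinase, had 266 and 350 reads, for a ratio of 0.60 (0.36 to 0.83). Ndrg1, a stress-responsive gene, had 630 and 375 reads and was lower at -0.54 (-0.73 to -0.36). The wider targets thus went in both directions, with 25.0% higher and 8.33% lower against 15.5% and 14.7% of all genes.

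Cell type markers moved between the libraries as well, beside 15.5% higher and 14.7% lower over all genes. Of 11 radial glia markers, 7 passed the filter and 5 were higher, with a sum of 599 RPM in siCtl and 784 in siPhf6 (Vim had 1855 and 1960 reads, Ptprz1 2479 and 2509). Of the 7 that passed, 6 had ratios above 0. The exception was Sox2, named after its value was seen, with 280 and 208 reads, a ratio of -0.22 (-0.49 to 0.04) and no call. Of 10 markers of dividing cells, 2 passed and both were higher, Top2a from 136 to 275 reads and Mki67 from 120 to 250, and the 10 summed to 43.9 and 88.4 RPM. Of 10 astrocyte markers, 8 passed and 3 were higher, with 541 and 686 RPM (Slc1a2 had 2947 and 3846 reads, Sparcl1 1122 and 1131). Without Slc1a2 the other 9 summed to 298.6 and 321.6 RPM. Of the 8 that passed, 5 had ratios above 0. The markers that follow were named after their values were seen. Aqp4 and Apoe were also called higher, at 0.80 (0.44 to 1.18) and 0.36 (0.13 to 0.59). Gfap, Glul and Gja1 had ratios of -0.14, -0.09 and -0.02 and were not called. All 12 markers of postmitotic neurons passed, none was higher and 2 were lower, with 3625 and 3539 RPM (Map2 had 10650 and 10391 reads, Dcx 9476 and 7605), so libraries labelled as cortical progenitors also held transcripts of neurons. Of 9 markers of mural cells and fibroblasts, 4 passed, 1 was higher and 2 were lower, with 93.0 and 101.7 RPM (Rgs5 had 360 and 248 reads, Pdgfrb 274 and 245).

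None of the 8 endothelial, 8 microglial and 7 erythroid markers passed the filter. The endothelial markers summed to 9.71 and 9.85 RPM, with Flt1 at 41 and 45 reads, Esam at 39 and 21 and Cldn5 at 0 in both. The microglial markers summed to 4.52 and 6.06 RPM, with Aif1 at 44 and 38 reads, Csf1r at 3 and 8 and C1qa at 0 in both. The erythroid markers summed to 12 and 4 reads, with Alas2 at 5 and 3, Hba-a1 at 3 and 1, and Hbb-y and Slc4a1 at 0 in both. In bulk libraries fewer cells of a type and less RNA per cell cannot be told apart, and the part of the radial glia, astrocyte and dividing cell markers called higher in the results for Slc2a3, Slc16a1, Pdk3 and the other called genes was not tested.

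Removal of duplicate reads bounds the count of a highly expressed gene. The most reads per kilobase were 1803 in siCtl and 1785 in siPhf6, both of mt-Nd1, against medians of 165.5 and 142.8 over the genes that passed. Over the 1012 genes with most reads per kilobase in both libraries together, the median ratio was 0.07, with 90 higher and 49 lower, and over the 1012 with fewest it was -0.02, with 263 and 248. In siCtl, Aldoa stood above 96.4% of the genes that passed, Pfkm above 96.2%, Eno2 above 93.4% and Ldhb above 91.0%. The ratios of these 4 enzymes were 0.23, 0.07, 0.34 and 0.13, of which only that of Eno2 was called, and the part of duplicate removal in them was not tested.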

How the data were processed

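The authors deposited 1 file of read counts per library, whole numbers of reads per gene and not normalized. The libraries were TruSeq RNA v2, which do not mark strand, a detail that the study's methods do not give. By those methods, reads were aligned to mm10 with HISAT2, duplicates were removed with samtools and HTSeq counted reads per gene of GENCODE release M9. Versions are not given in the sources used here, and the submitters' processing notes also name deepTools 3.5.1. Reads outside genes (25.3% and 24.1%) and ambiguous reads (1.99% and 2.04%) were left out of the 12155311 and 10561757 gene reads. Groups came from the sample labels.

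Counts were scaled to 1000000 gene reads per library (RPM). Genes with at least 150 reads in 1 library were kept, 1 read was added to each count, and log2 ratios were given exact 95% Clopper-Pearson intervals (scipy 1.17.1). A call needed a ratio over 0.25 in size and an interval without 0, and this was checked on simulated data. The simulated counts held counting error only, so the check does not cover variation between cultures. Symbols, positions and exon lengths came from GENCODE M21 (GRCm38, the same assembly as mm10), which matched 47224 of 47643 identifiers, and promoters from RefSeq GRCm38.p6. Per-kilobase levels used the union of exons, which can be much longer than 1 transcript. They compare a gene between the libraries and give only a rough order between genes. Shared sequence is the share of 50-base stretches of a gene's longest coding transcript found on either strand of transcripts of other M21 genes. The named genes were all 37 listed genes, Phf6, up to 2 called genes in each direction per pathway list, the 2 markers with most reads per list and copies that held reads; 1 gene this rule names is not reported here. The genes and lists were chosen with earlier results of these data known. Alternatives used edgeR 4.0.16 (TMM factors) and DESeq2 1.42.0 (size factors), other filters, call limits and added reads, a binomial test, an assumed variation between cultures, and trends on reads per kilobase, exon length and GC content subtracted.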

Additional observations from a re-analysis of the deposited data

How the results depend on the processing

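The calls were recomputed under 14 alternatives, and 0 of the 10 called genes changed direction. Of 413 values of single genes, 13 had another sign than reported, all of Gapdh, Egln2 or Bnip3, whose reported ratios were at most 0.0084 in size. Only the other scalings, the other number of added reads and the subtracted trends could move a ratio. The other filters and limits, the binomial rule, the assumed variation and the leaving out of genes kept each ratio as reported. Their values are among the 413 but could not change sign. TMM factors, DESeq2 size factors, a median of all genes set to 0, 0.5 reads added and trends on exon length or GC content left 9 genes higher and 1 lower. With at least 10 reads, or with no filter, 10 of 36 listed genes were higher and 2 lower, the added calls being Egln3 and Adm. The median of the transporters was then 0.47. The number of genes tested changed as well. Over all genes, 1574 were higher and 1487 lower of 10130 as reported, 2408 and 1948 of 16220 with at least 10 reads, and 2500 and 1977 of 27230 with no filter. At a limit of 0.5, 2 were higher (Slc16a1 and Pdk3) and 1 lower (Pfkfb3), against 562 and 499 of all genes. At a limit of 1, 0 were higher and 0 lower, against 107 and 48. With the assumed coefficient of variation of 0.1, 2 were higher and 1 lower, against 663 and 629. The binomial rule at an FDR of 0.01 lost P4ha2, leaving 8 higher, and the trend on reads per kilobase added Hk2, giving 10. No replicate could be left out and no paired analysis was possible because each group had 1 library. Depth limits Slc16a3, Ankrd37, Adm and Car9, each under 25 reads in both libraries.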
